A study of Mus musculus with 4 samples.

Results

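The 31 genes described here encode proteins of neutrophil granules, neutrophil surface and cytosolic proteins, and regulators of neutrophil maturation. They were taken as a named list from the table of 55401 Ensembl genes, and all 31 were found there by symbol. Neutrophils fill their granules in sequence as they mature. The primary (azurophil) granules of promyelocytes hold myeloperoxidase and serine proteases, the secondary (specific) granules of later stages hold lactoferrin and antimicrobial peptides, and the tertiary (gelatinase) granules come last. Transcripts of each granule class are made mainly while that class is being packed, so that their relative amounts are widely used to stage the granulocyte lineage.

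Poly(A) RNA was sequenced from bone marrow-derived macrophages of C57BL/6J mice, that is, cells grown out of marrow into macrophages in culture. In the Adcy7 knockout group (2 libraries) the marrow cells had received a CRISPR-Cas9 lentivirus against Adcy7, which encodes an adenylyl cyclase, and in the Rosa control group (2 libraries) a virus of the same kind against Rosa, a locus commonly used as a neutral target. All cultures were infected on day 1 at a multiplicity of infection of 30, differentiated in 5 days and labelled batch 1. The labels give no mouse age, no guide number and no count of cultures or mice behind a library, so the spread that the p-values rest on may be technical. The libraries held 61782358 to 71914179 deposited counts. Adcy7 was at 59.4 and 58.8 CPM in the knockout libraries, against 122 and 125 CPM in the control libraries, with a log2 fold change of -1.05 (SE 0.09, adjusted p of 4.6e-06) for knockout over control. Here and below, tests are edgeR's quasi-likelihood F-tests and adjusted p-values are Benjamini-Hochberg values over all tested genes. Of the macrophage markers, some were abundant in all libraries and others were near 0 in the knockout. Csf1r was at 1307 and 1168 CPM in the knockout libraries, against 1812 and 1806 CPM in the control libraries. Cd68, another macrophage marker, was at 956 and 894 CPM in the knockout libraries, against 916 and 855 CPM in the control libraries. C1qa and Mrc1, also macrophage markers, were at 0.0556 and 0 CPM and at 0 and 0.129 CPM in the knockout libraries. Of 12 such markers 10 fell at an adjusted p at or under 0.05 (median log2 fold change -3.92), as did 24.6% of all tested genes. In bulk RNA, fewer neutrophil-lineage cells and less of a transcript per cell cannot be told apart.

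All 31 genes passed the filter on low counts and were tested, Alpl through its knockout counts alone. With an adjusted p at or under 0.05, 10 were higher in the knockout, 10 were lower and 11 did not pass. Of all 15832 tested genes 49.6% passed, 25% higher and 24.6% lower, so calls were common throughout the table. The median log2 fold change was 0.00 for the 31 genes and 0.015 for all tested genes. The libraries of the groups did not overlap for 23 of the 31, 12 with the knockout above and 11 with the knockout below, where 75.2% of all tested genes did not overlap (37.4% above and 37.8% below). The list as a whole thus stood near the centre of the table, and its members differed among themselves, with log2 fold changes of -1.62 for Lyz2 to 1.86 for Mmp25 among the 30 genes with counts in both groups.

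The replicates of each group stood apart in these genes. Of the 13 primary, secondary and tertiary granule genes, 3 were higher in knockout replicate 1 than in knockout replicate 2, and 12 were higher in control replicate 1 than in control replicate 2. Their median log2 ratio of replicate 1 to replicate 2 was -0.15 between the knockout libraries and 0.34 between the control libraries, while all tested genes had medians of -0.03 and 0.02 in those groups. Changes of this size between groups can therefore hang on single libraries, and the values without a library are given where they end a call. A fit that leaves out a library has 1 library in that group, which is assumed to vary like the other group.

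**Figure D1:**
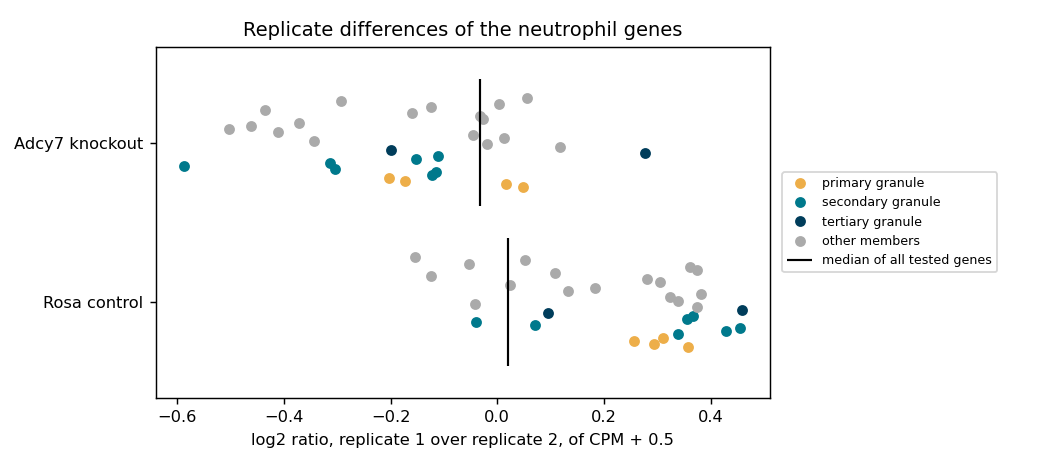
Log2 ratio of replicate 1 to replicate 2 (CPM + 0.5) for the neutrophil genes other than Alpl, with knockout above control. Points are genes coloured by granule class, and the black line is the median of all tested genes. In the control, 12 of 13 granule genes lie right of 0, and in the knockout 3 of 13 do.

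Of the 4 primary granule genes, Mpo, Elane and Prtn3 were lower in the knockout and Ctsg was higher. All 4 passed, against 49.6% of all tested genes. Mpo, which encodes myeloperoxidase, the enzyme that makes hypochlorous acid, was at 50.8 and 49.2 CPM in the knockout libraries, against 91.4 and 71.3 CPM in the control libraries. Both knockout libraries lay below both control libraries, and the replicates of the control were further apart than those of the knockout. The log2 fold change of Mpo was -0.68 (SE 0.12, adjusted p of 0.000707), or 62.2% of the control level. Elane, the gene of neutrophil elastase, was at 102 and 101 CPM in the knockout libraries, against 156 and 127 CPM in the control libraries. Prtn3, the gene of proteinase 3 and a direct neighbour of Elane on chromosome 10, was at 105 and 119 CPM in the knockout libraries, against 165 and 138 CPM in the control libraries. Both were lower in each knockout library than in each control library, by less than Mpo. Elane had a log2 fold change of -0.46 (SE 0.11, adjusted p of 0.00428) and Prtn3 one of -0.42 (SE 0.10, adjusted p of 0.00637). Both calls ended without control replicate 1 (Elane -0.33, adjusted p of 0.112, and Prtn3 -0.31, adjusted p of 0.131).

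Ctsg, the gene of cathepsin G, another serine protease of the primary granule, was at 36.5 and 42.1 CPM in the knockout libraries, against 34.6 and 27.8 CPM in the control libraries. Its knockout libraries were above its control libraries, by a narrow gap to control replicate 1. Its log2 fold change was 0.35 (SE 0.12, adjusted p of 0.0377). The call ended without knockout replicate 2 (0.28, adjusted p of 0.0901) and without control replicate 2 (0.21, adjusted p of 0.391). It also ended with library totals in place of TMM scaling (adjusted p of 0.0622), without the low-count filter (0.126) and with edgeR's older quasi-likelihood method (0.0547). Within a library, the log2 ratio of the summed CPM of Mpo, Elane and Prtn3 to that of Ctsg averaged 2.75 over the knockout libraries and 3.59 over the control libraries, with a pooled SD of 0.07. This ratio, chosen after the values were seen, restates those changes without library scaling and was lower in both knockout libraries.

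The promoters of the 4 primary granule genes are shown because 3 of these genes fell together and the fourth did not. Each window runs from 250 bases before to 50 bases after the transcription start, in RefSeq's GRCm38.p6, a different build from the GRCm39 named for the counts, and is written 5′ to 3′ on the gene's strand. Capitals mark matches to the core GAGGAA, bound by the ETS factor PU.1, or to TTNNGNAA, a C/EBP-type pattern, on either strand. The patterns were chosen after the values were seen, and no match of one overlapped a match of the other in the windows shown.
Mpo (chr11:87793534-87793833, plus strand): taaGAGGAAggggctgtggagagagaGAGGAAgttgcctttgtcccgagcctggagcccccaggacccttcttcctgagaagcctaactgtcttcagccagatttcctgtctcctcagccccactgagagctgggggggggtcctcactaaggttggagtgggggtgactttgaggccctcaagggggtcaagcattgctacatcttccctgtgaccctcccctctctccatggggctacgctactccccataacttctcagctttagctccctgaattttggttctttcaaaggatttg
Elane (chr10:79886062-79886361, plus strand): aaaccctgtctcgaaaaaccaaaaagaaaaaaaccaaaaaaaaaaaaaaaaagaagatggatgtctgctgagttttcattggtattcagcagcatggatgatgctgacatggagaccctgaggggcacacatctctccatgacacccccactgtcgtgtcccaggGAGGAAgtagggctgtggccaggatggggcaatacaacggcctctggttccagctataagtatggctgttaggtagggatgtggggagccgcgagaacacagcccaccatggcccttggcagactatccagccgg
Prtn3 (chr10:79879417-79879716, plus strand): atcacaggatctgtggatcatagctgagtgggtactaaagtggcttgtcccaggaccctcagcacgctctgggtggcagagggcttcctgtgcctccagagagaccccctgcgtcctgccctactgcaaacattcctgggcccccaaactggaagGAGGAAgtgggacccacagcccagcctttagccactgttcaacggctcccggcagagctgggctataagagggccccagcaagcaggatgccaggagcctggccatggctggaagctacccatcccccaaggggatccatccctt
Ctsg (chr14:56102525-56102824, minus strand): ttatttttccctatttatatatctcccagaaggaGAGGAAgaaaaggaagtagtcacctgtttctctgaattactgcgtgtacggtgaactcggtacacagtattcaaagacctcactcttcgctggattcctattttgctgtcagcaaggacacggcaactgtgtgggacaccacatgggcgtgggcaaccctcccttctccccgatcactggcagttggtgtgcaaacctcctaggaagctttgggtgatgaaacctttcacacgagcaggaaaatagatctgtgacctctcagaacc
All 4 windows held GAGGAA and none held TTNNGNAA. Of all 32851 promoter windows of this length, 28.3% held the first and 40.7% the second. The core TGTGGT, bound by RUNX factors, was in the window of Ctsg but not in those of Mpo, Elane and Prtn3, and in 16.8% of all windows. The gene that rose and the genes that fell thus shared the first pattern. A match is a description of the letters and not a bound site.

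Of the 7 secondary granule genes, 3 were higher in the knockout and 4 did not pass. That is 42.9% passing, against 49.6% of all tested genes. Mmp8, the gene of neutrophil collagenase, was at 740.05 and 919 CPM in the knockout libraries, against 444 and 456 CPM in the control libraries. The gap between the groups was wider than the spread of either, and the log2 fold change was 0.90 (SE 0.11, adjusted p of 4.29e-05), or 1.86-fold. Cd177, which encodes a surface glycoprotein of neutrophils that is also stored in specific granules, was at 137 and 152 CPM in the knockout libraries, against 128 and 100.04 CPM in the control libraries. Pglyrp1, which encodes a peptidoglycan-binding antibacterial protein, was at 118 and 128 CPM in the knockout libraries, against 112 and 87 CPM in the control libraries. For both, control replicate 1 lay just under the knockout libraries and control replicate 2 further below. Their log2 fold changes were 0.35 (SE 0.12, adjusted p of 0.0249) and 0.32 (SE 0.12, adjusted p of 0.0409). The calls ended without control replicate 2, with values of 0.20, adjusted p of 0.376 for Cd177 and 0.16, adjusted p of 0.5 for Pglyrp1. They also ended without the low-count filter (adjusted p of 0.117 and 0.151). That of Pglyrp1 further ended without knockout replicate 2 (0.0584), with library totals (0.0664) and with the older method (0.0597).

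The secondary granule genes Ngp, Ltf, Camp and Olfm4 did not pass. Ngp, a gene of a cathelicidin-related granule protein, was at 1424 and 1759 CPM in the knockout libraries, against 2119.97 and 1547 CPM in the control libraries. Ltf, the gene of the iron-binding protein lactoferrin, was at 721 and 782 CPM in the knockout libraries, against 869.9 and 646 CPM in the control libraries. For Ltf the knockout libraries lay between the control libraries, and for Ngp knockout replicate 2 did and knockout replicate 1 was the lowest. Camp, the gene of the mouse cathelicidin peptide, was at 142 and 155 CPM in the knockout libraries, against 145 and 115 CPM in the control libraries. Olfm4, the gene of the glycoprotein olfactomedin 4, which marks a subset of neutrophils, was at 7.62 and 11.7 CPM in the knockout libraries, against 11.4 and 10.8 CPM in the control libraries. Their groups also overlapped. The log2 fold changes were -0.19 (95% interval -0.50 to 0.12, adjusted p of 0.289) for Ngp and 0.00 (95% interval -0.27 to 0.28, adjusted p of 0.979) for Ltf. They were 0.21 (95% interval -0.04 to 0.46, adjusted p of 0.141) for Camp and -0.19 (95% interval -0.61 to 0.22, adjusted p of 0.425) for Olfm4. The intervals of Ngp and Olfm4 reached below the log2 fold change of Elane, so they include a fall of that size. The value of Olfm4 depended on which knockout library was kept. Without knockout replicate 2 it passed as lower (-0.49, adjusted p of 0.0304) and without knockout replicate 1 it had the other sign (0.07, adjusted p of 0.732).

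The promoters of Ngp and Ltf, which did not pass, and of Mmp8, which rose, are shown for comparison with those of the primary granule genes, with the same capitals.
Ngp (chr9:110419558-110419857, plus strand): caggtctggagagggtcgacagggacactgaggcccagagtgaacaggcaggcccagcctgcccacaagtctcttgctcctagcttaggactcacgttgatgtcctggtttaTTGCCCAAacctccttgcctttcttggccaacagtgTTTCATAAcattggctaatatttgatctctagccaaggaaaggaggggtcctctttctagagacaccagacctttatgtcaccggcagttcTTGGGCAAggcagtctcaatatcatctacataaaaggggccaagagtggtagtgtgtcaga
Ltf (chr9:111019042-111019341, plus strand): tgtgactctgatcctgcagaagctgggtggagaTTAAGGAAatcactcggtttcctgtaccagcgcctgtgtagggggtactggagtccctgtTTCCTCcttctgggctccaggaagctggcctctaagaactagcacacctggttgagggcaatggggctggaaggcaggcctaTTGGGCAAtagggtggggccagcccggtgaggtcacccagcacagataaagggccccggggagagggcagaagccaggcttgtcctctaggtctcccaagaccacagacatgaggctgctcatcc
Mmp8 (chr9:7558179-7558478, plus strand): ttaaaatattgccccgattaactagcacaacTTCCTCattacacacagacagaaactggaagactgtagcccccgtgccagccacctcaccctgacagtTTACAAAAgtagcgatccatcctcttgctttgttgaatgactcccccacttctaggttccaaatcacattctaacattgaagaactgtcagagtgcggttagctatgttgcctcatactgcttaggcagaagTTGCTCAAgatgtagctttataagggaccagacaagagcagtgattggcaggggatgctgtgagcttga
TTNNGNAA was in all 3 of these windows and in 5 of the 7 secondary granule windows, those of Cd177 and Olfm4 included. It was absent from the windows of Camp and Pglyrp1. Over the 28 genes of the list with a window, 18 held TTNNGNAA, 15 held GAGGAA and 5 held TGTGGT. The letters were thus shared by secondary granule genes that rose and by ones that did not pass.

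Both genes of the list assigned to the tertiary granules had higher means in the knockout, and Mmp25 passed. Mmp25, the gene of a membrane-anchored metalloproteinase of neutrophils, was at 9.58 and 7.82 CPM in the knockout libraries, against 2.52 and 2.33 CPM in the control libraries. Each knockout library was more than 3 times each control library in CPM. The log2 fold change was 1.86 (SE 0.21, adjusted p of 3.15e-05), the highest among the 30 genes with counts in both groups. Fcnb, which encodes the lectin ficolin B and whose human relative ficolin-1 is stored in gelatinase granules, was at 23.3 and 26.8 CPM in the knockout libraries, against 24.7 and 17.8 CPM in the control libraries. Control replicate 1 lay between the knockout libraries, and the log2 fold change was 0.25 (95% interval -0.08 to 0.58, adjusted p of 0.193). Without control replicate 1 Fcnb passed (0.48, adjusted p of 0.0477).

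Set against each other, the primary granule genes were lower in the knockout relative to the 9 secondary and tertiary ones of the list. The 4 primary genes had a median log2 fold change of -0.44 (1 rose, 3 fell), and the 9 secondary and tertiary genes one of 0.25 (4 rose, none fell, 5 did not pass), with 0.015 for all tested genes. All 4 primary genes and 44.4% of the 9 others passed, against 49.6% of all tested genes. With each library left out in turn, the median of the primary genes was -0.56 to -0.32, and that of the secondary and tertiary genes 0.06 to 0.48, lowest without control replicate 2, where the calls of Cd177 and Pglyrp1 ended, and highest without control replicate 1. Summed primary granule CPM came to 295 and 311 CPM in the knockout libraries, against 447 and 364 CPM in the control libraries. All knockout values were below all control values. The summed CPM of the secondary and tertiary genes was 3323 and 3940.4 CPM in the knockout libraries, against 3858 and 2982 CPM in the control libraries, and these groups overlapped. The primary sum was 8.87% and 7.89% of the secondary and tertiary sum in the knockout libraries, against 11.6% and 12.2% in the control libraries. On the log2 scale this ratio averaged -3.58 over the knockout libraries and -3.07 over the control libraries, a difference of -0.51, several times the pooled SD of 0.09 between replicates. The difference was -0.59 to -0.42 with each library left out in turn. With 2 libraries a group no exact permutation test can give a p under 0.33, so it is a description. Ngp carries the largest part of the secondary sum in every library, and without it the difference was -0.78. Mmp8 alone was 28.7% and 30.4% of the sum of the other 8 in the knockout, against 13% and 18.1% in the control. Its larger share in the knockout lowered the ratio there, so part of the difference of -0.51 rests on Mmp8. The difference without Mmp8 was not computed. Mmp9, a gelatinase gene usually assigned to the tertiary granules, was on another list and in neither sum. It was at 1773 and 1432 CPM in the knockout libraries, against 2799 and 2708 CPM in the control libraries. It passed as lower, with a log2 fold change of -0.76 (adjusted p of 0.000289). Adding it to the sum would narrow the difference, by an amount not computed. Lcn2, a secondary granule gene on the same other list, was also in neither sum. It was at 5569.9 and 5757 CPM in the knockout libraries, against 2135 and 1994 CPM in the control libraries. Adding Lcn2 would widen the difference, by an amount also not computed. The size of the difference thus depends on which abundant granule genes are counted.

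**Figure D2:**
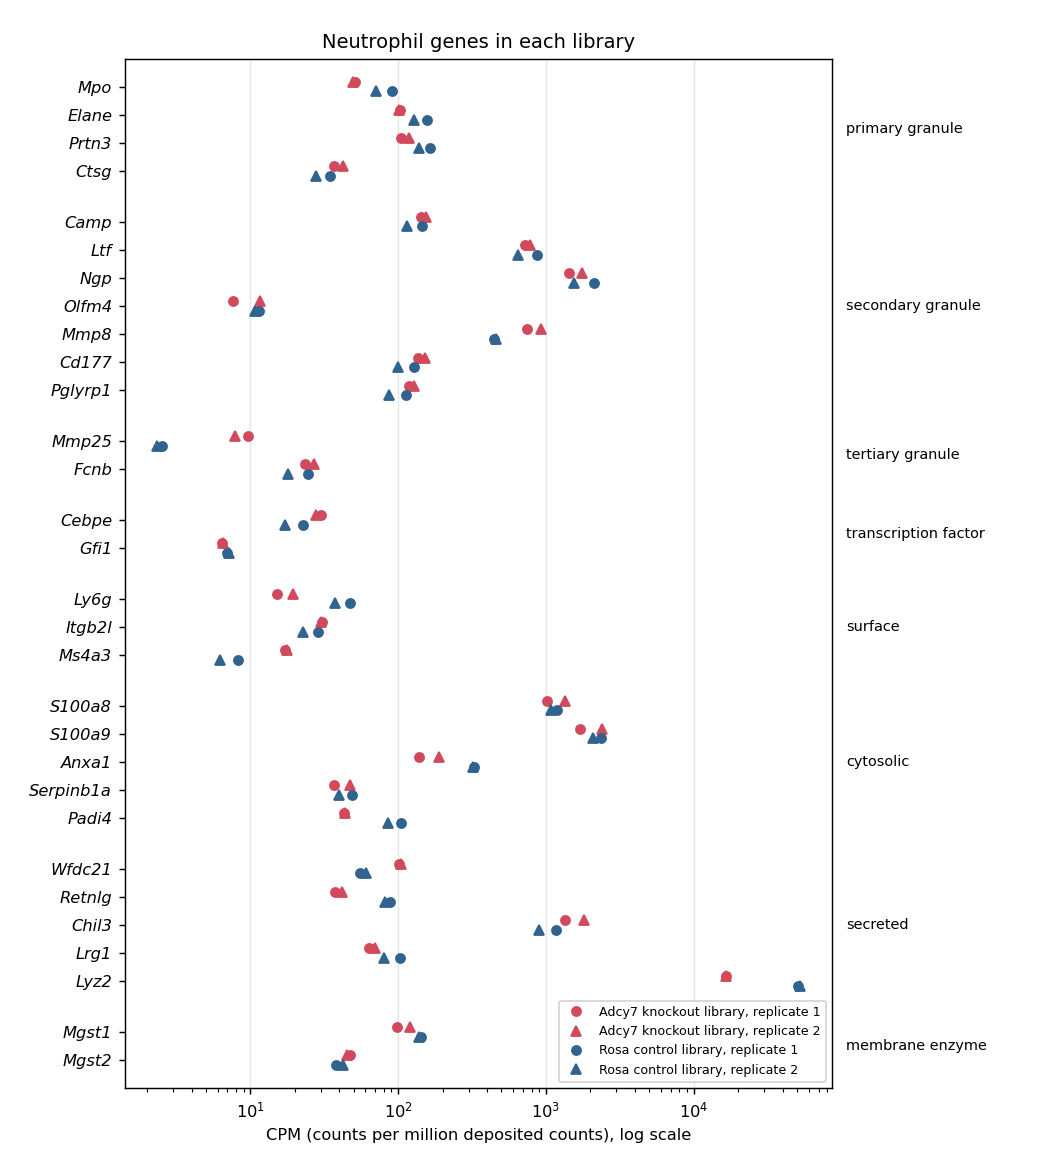
CPM of each neutrophil gene in each library on a log scale, grouped by role, with knockout points above control points in each row. Alpl is left out because the control had no count. The groups lie apart for Mmp25, Ms4a3, Ly6g, Padi4, Retnlg and Lyz2, and overlap for Ngp, Ltf, S100a8 and S100a9.

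Of the transcription factor and surface genes, Ms4a3, Cebpe and Alpl rose, Ly6g fell, and Gfi1 and Itgb2l did not pass. Ms4a3, which encodes a four-span membrane protein of granulocyte and monocyte progenitors, was at 17 and 17.6 CPM in the knockout libraries, against 8.30 and 6.25 CPM in the control libraries. It was higher in both knockout libraries, with a log2 fold change of 1.27 (SE 0.16, adjusted p of 5.83e-05). Cebpe, which encodes the transcription factor that secondary granule formation requires, was at 30.2 and 27.8 CPM in the knockout libraries, against 22.5 and 17.3 CPM in the control libraries, a log2 fold change of 0.56 (SE 0.14, adjusted p of 0.00595). Without control replicate 2 its call ended (0.39, adjusted p of 0.103). Gfi1, which encodes a repressor that acts in early granulopoiesis, was at 6.47 and 6.56 CPM in the knockout libraries, against 6.95 and 7.17 CPM in the control libraries. Its knockout libraries lay slightly below its control libraries, and its log2 fold change was -0.10 (95% interval -0.47 to 0.27, adjusted p of 0.646).

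Ly6g, the surface antigen by which mouse neutrophils are commonly gated, was at 15.2 and 19.4 CPM in the knockout libraries, against 47.2 and 37.2 CPM in the control libraries. It was lower in both knockout libraries, with a log2 fold change of -1.28 (SE 0.15, adjusted p of 3.08e-05). Padi4, the gene of the enzyme that citrullinates histones during the release of neutrophil extracellular traps, was at 43 and 43.9 CPM in the knockout libraries, against 104 and 85.5 CPM in the control libraries. Retnlg, which encodes a resistin-like secreted protein of mature mouse neutrophils, was at 37.1 and 41.5 CPM in the knockout libraries, against 88.4 and 82 CPM in the control libraries. Both were at under 50% of the control level in the fit, with log2 fold changes of -1.11 (SE 0.11, adjusted p of 1.02e-05) and -1.10 (SE 0.10, adjusted p of 5.58e-06). Itgb2l, the gene of an integrin beta-like surface protein of maturing neutrophils, was at 30.5 and 30.2 CPM in the knockout libraries, against 28.6 and 22.7 CPM in the control libraries. Its groups lay apart by a small gap, and its log2 fold change was 0.26 (95% interval -0.02 to 0.54, adjusted p of 0.11). Alpl, the gene of alkaline phosphatase, an enzyme of the secretory vesicles of neutrophils, had 26 and 41 counts in the knockout libraries and 0 in both control libraries. Its pooled knockout level of 0.501 CPM was 5.66 times a floor of 12 counts over the pooled control libraries, with counting error in the knockout left out. It passed, with an adjusted p of 0.00334. As it met the low-count filter through the knockout libraries alone, that it was tested at all depended on its counts there.

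Ratios within a library restate these differences without any scaling between libraries. Their directions follow from the fold changes above and add no support to them. The log2 ratio of Ms4a3 to Ly6g CPM was 0.17 and -0.14 in the knockout libraries, against -2.51 and -2.57 in the control libraries, a difference of 2.56 with a pooled SD of 0.16. That of Cebpe to Padi4 was -0.51 and -0.66 in the knockout libraries, against -2.21 and -2.31 in the control libraries, a difference of 1.67 (pooled SD 0.09). That of Retnlg to Camp was -1.94 and -1.90 in the knockout libraries, against -0.72 and -0.48 in the control libraries, a difference of -1.32 (pooled SD 0.12). Ly6g was 1.06% and 1.10% of Ngp in the knockout libraries, against 2.23% and 2.40% in the control libraries. These pairs were chosen after the values were seen, and the differences carry no test. Relative to the summed secondary and tertiary granule CPM of the same library, Ms4a3 differed by 1.17 on the log2 scale, Ly6g by -1.38, Padi4 by -1.21 and Retnlg by -1.21, knockout minus control.

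**Figure D3:**
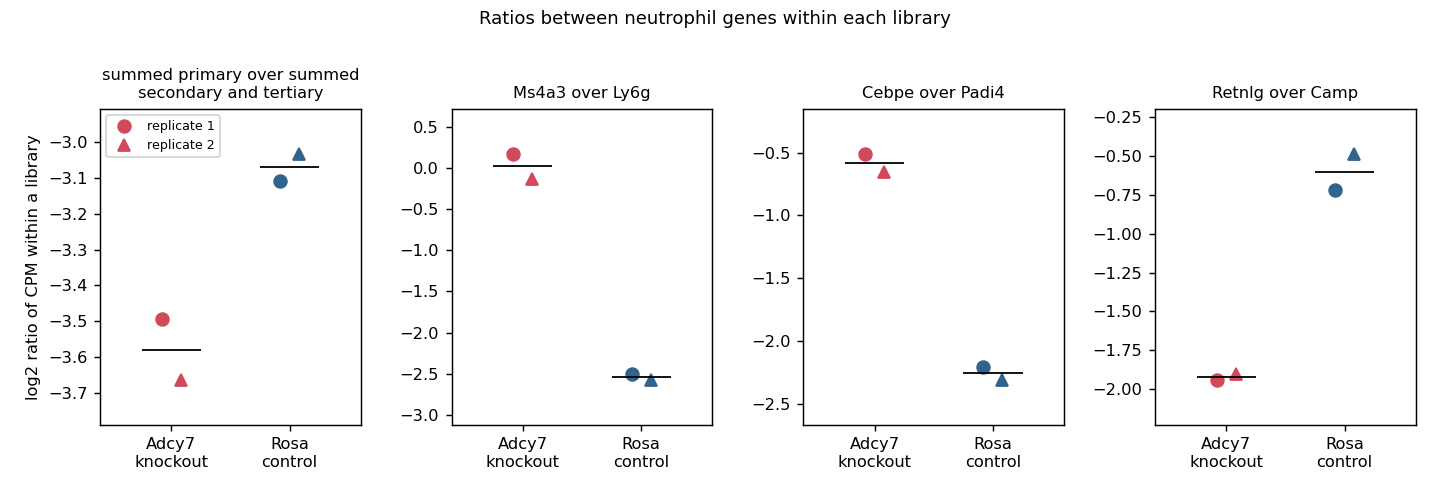
Log2 ratios of CPM within each library for 4 pairs, with knockout left of control. Points are libraries and lines are group means. The ratio of summed primary to summed secondary and tertiary CPM averaged -3.58 in the knockout and -3.07 in the control, and that of Ms4a3 to Ly6g 0.02 in the knockout and -2.54 in the control.

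Of the cytosolic proteins, Anxa1 fell with Padi4, and S100a8, S100a9 and Serpinb1a did not pass. S100a8 and S100a9, neighbours on chromosome 3 whose products form calprotectin, the most abundant cytosolic protein of neutrophils, had overlapping groups. S100a8 was at 1013 and 1346 CPM in the knockout libraries, against 1184 and 1079 CPM in the control libraries. S100a9 was at 1699.6 and 2407 CPM in the knockout libraries, against 2373 and 2090.5 CPM in the control libraries. Knockout replicate 1 had the lowest value of both genes and knockout replicate 2 the highest. Their log2 fold changes were 0.07 (95% interval -0.19 to 0.34, adjusted p of 0.649) and -0.11 (95% interval -0.41 to 0.20, adjusted p of 0.555). Without knockout replicate 1, S100a8 passed as higher (0.25, adjusted p of 0.0466), and without knockout replicate 2, S100a9 passed as lower (-0.35, adjusted p of 0.00946). Serpinb1a, which encodes an inhibitor of elastase, proteinase 3 and cathepsin G, was at 36.5 and 47.4 CPM in the knockout libraries, against 49.1 and 39.6 CPM in the control libraries, a log2 fold change of -0.07 (95% interval -0.37 to 0.24, adjusted p of 0.719). Anxa1, the gene of annexin A1, a phospholipid-binding protein that limits neutrophil recruitment, was at 138 and 190.1 CPM in the knockout libraries, against 328 and 322 CPM in the control libraries. Both knockout libraries were far below both control libraries, with a log2 fold change of -0.97 (SE 0.13, adjusted p of 8.15e-05). Macrophages express Anxa1 too, so its level need not come from neutrophils.

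All 5 genes of secreted proteins in the list passed, Wfdc21 and Chil3 higher and Lyz2, Retnlg and Lrg1 lower. Of all tested genes 49.6% passed. Lyz2, the gene of lysozyme M, which macrophages and neutrophils both make, was at 16468 and 16439.7 CPM in the knockout libraries, against 50358 and 52209 CPM in the control libraries. It was the highest transcript of the list by length in each library, and its log2 fold change was -1.62 (SE 0.12, adjusted p of 8.03e-07). Its near-identical copy Lyz1 was at 34.5 and 33 CPM in the knockout libraries, against 198 and 215 CPM in the control libraries, and reads can be split between the copies. Wfdc21, which encodes a small protein with a whey acidic protein domain, was at 101 and 104 CPM in the knockout libraries, against 55.4 and 60.5 CPM in the control libraries, a log2 fold change of 0.84 (SE 0.10, adjusted p of 3.8e-05). Chil3, the gene of the chitinase-like protein Ym1 of neutrophil precursors and macrophages, was at 1338 and 1809 CPM in the knockout libraries, against 1165 and 898 CPM in the control libraries. It was higher in each knockout library, with a log2 fold change of 0.62 (SE 0.14, adjusted p of 0.0042), and without the low-count filter its adjusted p was 0.0619. Lrg1, the gene of a leucine-rich glycoprotein found in neutrophil granules, was at 63.7 and 69.5 CPM in the knockout libraries, against 103 and 80.3 CPM in the control libraries. Its log2 fold change was -0.45 (SE 0.12, adjusted p of 0.00899), and its call ended without control replicate 1 (-0.28, adjusted p of 0.198) and without the low-count filter (0.0599).

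The microsomal glutathione transferase genes differed from each other. Mgst1 was at 97.8 and 119.8 CPM in the knockout libraries, against 142 and 137 CPM in the control libraries. The knockout libraries were below the control libraries, with a log2 fold change of -0.35 (SE 0.10, adjusted p of 0.0167). The call ended without control replicate 1 (adjusted p of 0.09), without control replicate 2 (0.0784) and without the low-count filter (0.066). Mgst2, whose product can also make leukotriene C4, was at 47.2 and 45.4 CPM in the knockout libraries, against 37.8 and 42.1 CPM in the control libraries, a log2 fold change of 0.23 (95% interval -0.01 to 0.47, adjusted p of 0.106). Its libraries did not overlap between groups, and without knockout replicate 2 it passed (0.29, adjusted p of 0.0452).

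**Figure D4:**
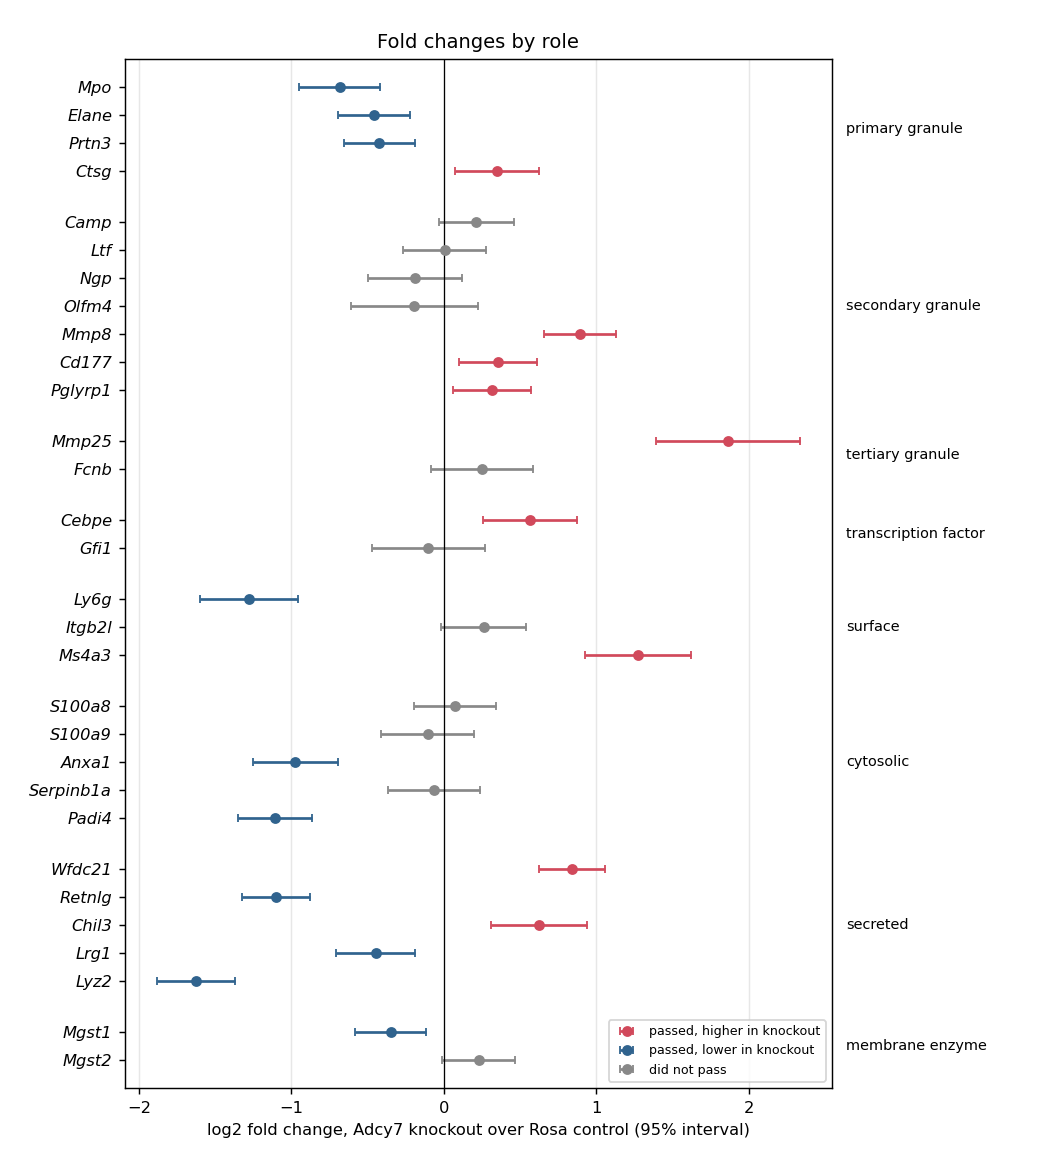
Log2 fold change of knockout over control with 95% intervals, grouped by role, for the genes with counts in both groups. Red points passed as higher, blue points passed as lower and grey points did not pass. Mpo, Elane and Prtn3 lie left of 0 and Ctsg right of 0, while none of the secondary and tertiary granule genes shown passed as lower. Mmp9, on another list, is not shown.

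Compared per kilobase of annotated exon, the order of the most abundant transcripts was the same in both groups. Lyz2 came first at 12503 CPM per kilobase in the knockout and 38969 in the control. S100a9 followed at 3934 in the knockout and 4275 in the control, then S100a8, Ngp and Chil3. Among the primary granule genes the order per kilobase was Elane, Prtn3, Ctsg and Mpo in both groups. Elane stood at 103 CPM per kilobase in the knockout and 144 in the control. Among the 31 genes, Pglyrp1 ranked 11 in the knockout and 16 in the control, and Padi4 ranked 26 in the knockout and 21 in the control, a shift of 5 places for both. Wfdc21 ranked 7 in the knockout and 11 in the control, and Mmp8 ranked 6 in the knockout, above Ltf, and 7 in the control, below Ltf. In the control, Mmp8 and Ltf overlapped between libraries per kilobase, as did S100a8 and Ngp, so the order within these pairs does not exceed their spread. Exon lengths came from GRCm38 gene models.

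Other genes of the same granules gave a fuller picture of the cultures. Of 12 further granule protein genes 11 were tested, and 7 rose, 3 fell and 1 did not pass (median log2 fold change 0.71). That is 90.9% passing, against 49.6% of all tested genes. Lcn2, the gene of the secondary granule protein lipocalin 2, was at 5569.9 and 5757 CPM in the knockout libraries, against 2135 and 1994 CPM in the control libraries, a log2 fold change of 1.47 (SE 0.10, adjusted p of 4.12e-07). Orm1, the gene of an acid glycoprotein, and Cst7, the gene of the protease inhibitor cystatin F, had log2 fold changes of 3.02 (SE 0.16, adjusted p of 7.02e-08) and 1.66 (SE 0.12, adjusted p of 1.09e-06). Bpi had 12 and 7 counts in the knockout libraries and 0 in the control libraries and was not tested. Of 10 genes that process, store or inhibit granule proteases, 8 rose, 2 fell and 0 did not pass (median log2 fold change 1.17). Ctsc, the gene of the dipeptidyl peptidase that activates elastase, proteinase 3 and cathepsin G, was at 187 and 217 CPM in the knockout libraries, against 520.4 and 491 CPM in the control libraries. It fell, with a log2 fold change of -1.31 (SE 0.10, adjusted p of 1e-06). Slpi, which encodes a secreted inhibitor of elastase, and Stfa3, one of a cluster of closely similar stefin genes among which reads can be split, had log2 fold changes of 1.44 (SE 0.11, adjusted p of 1.55e-06) and 1.87 (SE 0.14, adjusted p of 1.05e-06). Several of these genes are also induced in activated macrophages, so their change cannot be placed in a cell type.

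Of 18 receptor genes of neutrophils 3 rose, 11 fell and 4 did not pass (median log2 fold change -0.54). That is 77.8% passing, against 49.6% of all tested genes. C5ar1, the receptor gene for the complement fragment C5a, was at 90.3 and 81.5 CPM in the knockout libraries, against 280.3 and 273 CPM in the control libraries, a log2 fold change of -1.67 (SE 0.10, adjusted p of 1.74e-07). Clec4e, a lectin receptor gene that macrophages induce, had a log2 fold change of 3.26 (SE 0.14, adjusted p of 1.68e-08). Of 12 genes of mature neutrophils 1 rose, 4 fell and 7 did not pass (41.7% passed, median log2 fold change -0.15). Ccl6, Ifitm6 and Asprv1 fell, with log2 fold changes of -3.04 (SE 0.10, adjusted p of 2.35e-09), -2.51 (SE 0.10, adjusted p of 7.62e-09) and -1.71 (SE 0.11, adjusted p of 3.11e-07). Ccl6 is also a macrophage chemokine. Of 11 transcription factor genes of granulocyte development 6 rose, 4 fell and 1 did not pass (90.9% passed, median log2 fold change 0.42). Irf8, whose product favours monocytes over granulocytes, was at 109.9 and 105 CPM in the knockout libraries, against 347 and 337 CPM in the control libraries, a log2 fold change of -1.66 (SE 0.09, adjusted p of 1.13e-07). Cebpd and Gata2 had log2 fold changes of -1.98 (SE 0.09, adjusted p of 3.47e-08) and 2.97 (SE 0.24, adjusted p of 1.95e-06).

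Markers of other cell types moved in the same libraries, where 49.6% of all tested genes passed, and their part in these results was not tested. Of 12 macrophage markers 1 rose, 10 fell and 1 did not pass (median log2 fold change -3.92), and their summed level was 6402 to 6578 CPM in the knockout and 9536 to 9751 CPM in the control. The macrophage markers C1qa, C1qb, C1qc and Mrc1 were near 0 in the knockout, with C1qa at 0.0556 and 0 CPM in the knockout libraries, against 76.5 and 66.9 CPM in the control libraries and Mrc1 at 0 and 0.129 CPM in the knockout libraries, against 28.3 and 22.1 CPM in the control libraries. Of 7 monocyte markers 1 rose, 5 fell and 1 did not pass (median log2 fold change -2.20), with sums of 4231 to 4513 CPM in the knockout and 3690.4 to 3788 CPM in the control. Hp, which neutrophils also make, was the most abundant of these in every library, at 3730.2 and 3374 CPM in the knockout libraries, against 1421 and 1471 CPM in the control libraries. Progenitor markers, of which 7 of 9 were tested, gave 6 that rose and 1 that did not pass, with sums of 64.2 to 68.4 CPM in the knockout and 16.6 to 21.6 CPM in the control. Mecom, a member of that list that was not tested, had 0 and 16 counts in the knockout libraries and 0 in the control. Of 9 eosinophil markers 8 were tested, 7 rose, and the sums were 231 to 291 CPM in the knockout and 32.2 to 36.1 CPM in the control. Il5ra and Ear6 were at 0 in the control, and Ear6 was tested through its knockout counts alone. All 6 tested of 9 mast cell and basophil markers rose, with sums of 76.4 to 84.5 CPM in the knockout and 5.55 to 6.80 CPM in the control. Fcer1a was at 0 in the control, and Cma1 and Mcpt4 were at 0 in every library. All 8 platelet markers rose, with sums of 359 to 404 CPM in the knockout and 192 to 208 CPM in the control. Of 6 B cell markers 5 rose and 1 fell (median 3.82), with sums of 38.3 to 40.8 CPM in the knockout and 27 to 28 CPM in the control.

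**Figure D5:**
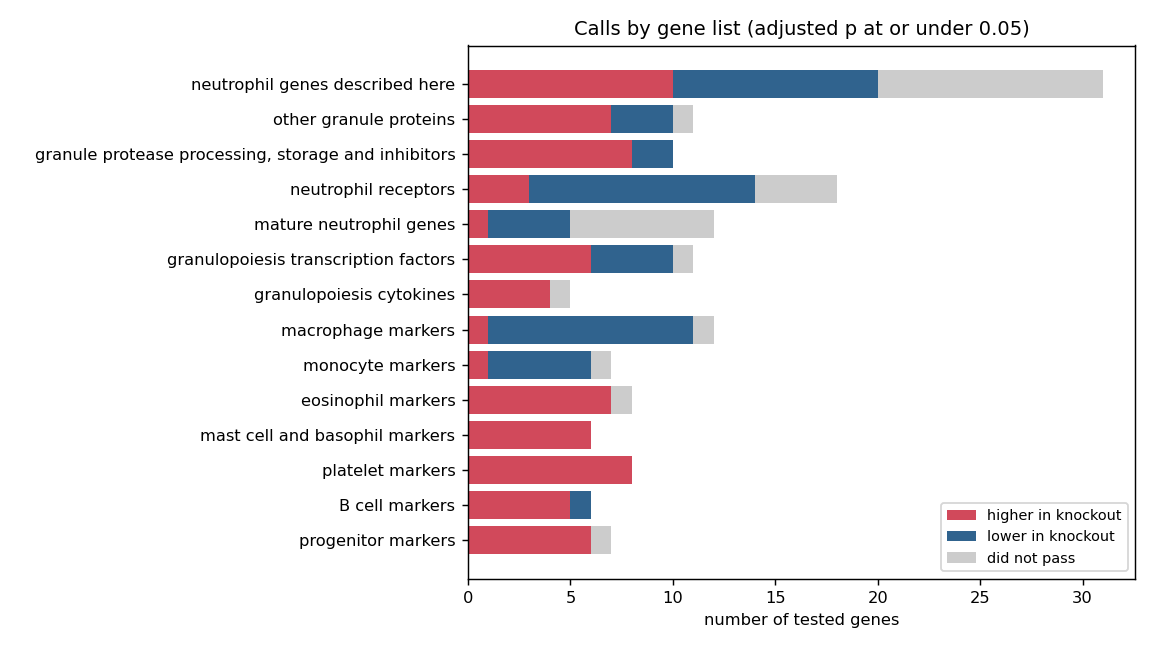
Number of tested genes of each list that were higher in the knockout (red), lower (blue) or did not pass (grey). The 31 neutrophil genes split evenly between higher and lower, with 10 each, while all tested mast cell and basophil markers (6) and platelet markers (8) were higher. Of all tested genes 25% were higher and 24.6% lower.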

How the data were processed

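The authors deposited one table of estimated counts per Ensembl gene (expected counts in type, whole numbers here), with no sign of normalization in the values. GRCm39, the trimmer fastp, the aligner HISAT2, the assembler StringTie and edgeR are named, per the submitters' processing notes. Neither versions nor settings nor the gene annotation are given there, nor how counts were made. The libraries came from oligo(dT)-selected RNA, per the labels' protocols, and no kit that keeps strand is named. Of the counts between 1 and 40, 30.54% to 32.17% were multiples of 4, above the 25% of an even spread, so floors take 1 fragment as 4 counts, which is an assumption. The floors cover counting error in the group without counts only, while the intervals come from the fit and include the spread between replicates.

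Symbols came from GENCODE M21 (GRCm38) and matched 55141 of 55401 IDs. The columns named KO3 were matched to the knockout titles by replicate number. The digit in KO3 is unexplained. After filterByExpr, 15832 genes remained. They were TMM-scaled and tested in edgeR 4.0.16 (quasi-likelihood method of version 4, 2 residual degrees of freedom) in R 4.3.3, with Benjamini-Hochberg adjustment over all tested genes and a threshold of 0.05. The SE is the log2 fold change divided by the square root of F. CPM are per deposited library total. The code of the test was checked on simulated counts with the same dispersion (spread beyond sampling noise) for every gene. That setting is simpler than these data, so the check does not cover their uneven replicates. Replicates differed by more than sampling noise (chi-square per degree of freedom of 10.7 for the knockout pair and 6.26 for the control pair, on counts divided by 4). Promoters came from RefSeq (GRCm38.p6), with a window for 28 of the 31 genes and the first listed window where there were several.

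The members, lists and tests were chosen with earlier results of these data known. Named are all 31 members, Adcy7 and, from each other list, up to 3 tested genes with the smallest adjusted p. Other genes that the text names, Mmp9 among them, were chosen after their values were seen. Granule classes follow usual assignments, and some proteins occur in more than 1 class. Some genes, Hp, Itgam and Gata2 among them, stand on 2 of the other lists. 1 gene that the rule names is not reported here. Alternatives were another scaling, library totals, DESeq2 1.42.0, no filter, counts divided by 4, a replicate block, leaving out each library, and edgeR's older quasi-likelihood method, which was added after seeing the data.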

Additional observations from a re-analysis of the deposited data

How the results depend on the processing

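Of the 20 genes that passed, 11 kept their direction and their call under every alternative in which they were tested: Mpo, Mmp8, Mmp25, Ly6g, Alpl, Ms4a3, Anxa1, Padi4, Wfdc21, Retnlg and Lyz2 (Alpl was not tested with counts divided by 4). The other 9 lost their call under at least 1. Of the 11 that did not pass, Camp, Itgb2l and Gfi1 kept both under every alternative. Genes called over the whole table numbered 7848, and 6091 to 7554 with a library left out. The number of the 31 genes called higher was 10, 6 without the low-count filter, and 6 to 11 with a library left out (6 without control replicate 2). The number called lower was 10, and 6 to 12 with a library left out (6 without control replicate 1). Ltf had a log2 fold change of -0.012 with library totals alone and -0.005 without the low-count filter, where the main value was 0.004. Leaving out a library gave -0.18 to 0.21 for Ltf, -0.39 to 0.03 for Ngp, -0.49 to 0.075 for Olfm4, -0.11 to 0.25 for S100a8, -0.35 to 0.10 for S100a9 and -0.23 to 0.094 for Serpinb1a, so these 6 have no settled direction. The cause was not tested. The medians were -0.56 to -0.32 for the primary and 0.06 to 0.48 for the secondary and tertiary granule genes. The labels do not pair the libraries. Same-numbered libraries' deviations from their group means correlated at 0.02 over the tested genes, and with a replicate block 7843 genes passed, with no call among the 31 genes changed.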

Other observations

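Of 6 cytokine genes that act on the formation of granulocytes or macrophages 5 were tested, and 80% of these passed, against 49.6% of all tested genes. Csf1, Csf2, Csf3 and Il6 rose in the knockout and Kitl did not pass. Csf3, the gene of granulocyte colony-stimulating factor, was at 109 and 87.3 CPM in the knockout libraries, against 0.821 and 1.13 CPM in the control libraries, with a log2 fold change of 6.66 (SE 0.20, adjusted p of 2.09e-09). Csf1 was at 87.7 and 81 CPM in the knockout libraries, against 3.12 and 2.76 CPM in the control libraries, and Il6 was at 69.2 and 109 CPM in the knockout libraries, against 0.882 and 0.343 CPM in the control libraries. Csf2 had 154 and 108 counts in the knockout libraries and 0 in the control libraries, so it met the low-count filter through the knockout alone. Its pooled knockout level was 22.2 times the floor of 12 pooled control counts. With Csf2 at that ratio the median log2 fold change of the 5 was 4.86, and 6.66 with its fitted value. Csf3r, the receptor gene for Csf3 on granulocytes and monocytes, was at 79.5 and 77 CPM in the knockout libraries, against 232 and 190.5 CPM in the control libraries, a log2 fold change of -1.42 (SE 0.11, adjusted p of 1.28e-06). Il3 had no count in any library.

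Several granule genes of eosinophils, basophils and mast cells were higher in the knockout. Prg2, the gene of the eosinophil major basic protein, was at 249 and 189.8 CPM in the knockout libraries, against 27.1 and 25.7 CPM in the control libraries, a log2 fold change of 3.07 (SE 0.14, adjusted p of 3.04e-08). Epx, the gene of eosinophil peroxidase and a relative of Mpo, was at 20.2 and 18.3 CPM in the knockout libraries, against 2.66 and 1.04 CPM in the control libraries, a log2 fold change of 3.41 (SE 0.27, adjusted p of 1.54e-06). Prss34, a serine protease gene of basophils and mast cells, was at 57.1 and 48.9 CPM in the knockout libraries, against 4.67 and 3.46 CPM in the control libraries, a log2 fold change of 3.73 (SE 0.16, adjusted p of 2.08e-08). In the same libraries Mpo was lower in the knockout, and the difference between these genes and Mpo was not tested.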
